A study of Mus musculus with 12 samples.

Results

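The respiratory chain genes of mouse liver cells were followed from hepatocytes to cells that carry biliary surface markers. Members were the genes whose symbols name a subunit of NADH dehydrogenase (complex I), succinate dehydrogenase (II), the cytochrome bc1 complex (III), cytochrome c oxidase (IV) or ATP synthase (V), with at least 10 counts in at least 3 libraries. Of 53599 genes in the count table, 98 symbols matched and 92 passed this minimum. The 79 nuclear members comprised 36 genes of complex I, 4 of complex II, 8 of complex III, 14 of complex IV and 17 of complex V. The 13 mitochondrial members were all the protein-coding genes of the mitochondrial genome, with 7 for complex I, 1 for complex III, 3 for complex IV and 2 for complex V. The 6 symbols left out (Cox4i2, Cox6a2, Cox6c2, Cox7b2, Cox8b and Cox8c) were alternative complex IV subunits with at most 5 counts in any library.

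Complexes I and II pass electrons from NADH and succinate to ubiquinone, complex III passes them to cytochrome c, and complex IV to oxygen. The proton gradient made by complexes I, III and IV drives ATP synthesis by complex V. Hepatocytes are rich in mitochondria, and their chain serves fatty acid oxidation, gluconeogenesis and urea synthesis. Complex II is encoded by the nucleus alone, while the other complexes combine nuclear subunits with subunits transcribed from mitochondrial DNA by a separate polymerase.

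All mice had received AAV8-TBG-Cre, in which the hepatocyte promoter TBG drives Cre recombinase, so that EGFP marks hepatocytes and their descendants. From 1 week later they were fed 0.1% DDC, which injures bile ducts, for 8 weeks. Cells labelled WT were then sorted into 4 groups of 3 replicates, named early (EGFP+ Cd24- Epcam-), intermediate (EGFP+ Cd24+ Epcam-), full (EGFP+ Cd24+ Epcam+) and BEC (biliary epithelial cells, EGFP- Epcam+). No group came from a liver without virus and diet, and the labels give neither age nor sex nor which replicates share a mouse, so p-values measure the spread between these samples, which may be partly technical. Total counts lay between 15112893 and 19731887 per library. Summed hepatocyte markers held 98086 to 102262 CPM (counts scaled to a common library size, with TMM factors) in early, 14881 to 19482 in intermediate, 3152 to 4159 in full and 1990 to 2655 in BEC libraries. Summed biliary markers held 1252 to 2256, 9812 to 12696, 12604 to 15810 and 15150 to 18637 CPM in the same order. Summed macrophage markers held 61.6 to 172 CPM in early, 93.1 to 139 in intermediate, 188 to 227 in full and 488 to 523 in BEC libraries, and markers of B, T and NK cells stayed at or under 0.320 CPM. Summed endothelial, stellate cell and erythroid markers reached 22.3, 221 and 32.9 CPM in early and 6.63, 96.6 and 1.23 in BEC libraries. Dissociation stress genes summed to 2664 to 4552 CPM in early and to 3395 to 6695 in the full and BEC libraries.

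Promoters of the nuclear members are shown first, and several hold core motifs of factors known to drive respiratory genes. Whether these motifs have a part in the changes described below was not tested. RefSeq gave 72 promoters (GRCm38.p6, 250 bases before to 50 after a start) for 67 of the 79 nuclear members. The searched cores, on both strands, were CGCATGCG for NRF1, CCGGAAGT for ETS factors such as GABP, TCAAGGTCA for estrogen-related receptors (ESRR) and AAGATGGCG for YY1. No pair of these cores contains the other. The NRF1 core was in 9 of the 72 promoters (12.5%) against 1.87% of all 32851 promoters of the same length. The YY1 core was in 7 (9.72% against 1.40%), the ETS core in 5 (6.94% against 3.89%) and the ESRR core in 2 (2.78% against 0.423%). Any of the 4 was found in 21 member promoters (29.2%) against 7.21% of all promoters. A match is a run of letters and not a shown binding site. The following windows run 5′ to 3′ from 180 bases before to 20 after the start, with matched cores in capitals. Uqcr11 and Atp5j hold 2 cores each, and the Atp5j window is that of 1 of its 2 RefSeq starts. Atp5g2 and Atp5g3 encode the same ATP synthase c subunit from separate genes and hold different cores. Cox7a2l and Cox6b2, the nuclear members not called at the first step, hold none in this window, and neither do the promoters of most members: 46 of the 67 hold none.
Uqcr11, chr10:80406802-80407001, minus strand: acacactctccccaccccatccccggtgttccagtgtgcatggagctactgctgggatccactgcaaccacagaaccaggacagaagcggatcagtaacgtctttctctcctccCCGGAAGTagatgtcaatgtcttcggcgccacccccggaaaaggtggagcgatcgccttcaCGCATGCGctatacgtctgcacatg
Atp5j, chr16:84834957-84835156, minus strand: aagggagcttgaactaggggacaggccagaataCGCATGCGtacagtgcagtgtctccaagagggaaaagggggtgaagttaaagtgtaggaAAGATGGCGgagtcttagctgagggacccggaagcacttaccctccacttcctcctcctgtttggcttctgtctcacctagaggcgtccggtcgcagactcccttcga
Atp5g2, chr15:102671028-102671227, minus strand: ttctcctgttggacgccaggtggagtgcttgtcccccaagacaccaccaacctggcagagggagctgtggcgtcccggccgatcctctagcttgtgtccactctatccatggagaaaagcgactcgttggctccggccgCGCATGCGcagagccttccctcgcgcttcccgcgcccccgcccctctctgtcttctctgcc
Atp5g3, chr2:73911307-73911506, minus strand: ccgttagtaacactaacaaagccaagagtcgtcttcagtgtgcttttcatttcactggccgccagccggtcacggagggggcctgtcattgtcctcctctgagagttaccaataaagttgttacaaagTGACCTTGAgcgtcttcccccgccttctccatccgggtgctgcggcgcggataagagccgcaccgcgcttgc
Cox7a2l, chr17:83514314-83514513, minus strand: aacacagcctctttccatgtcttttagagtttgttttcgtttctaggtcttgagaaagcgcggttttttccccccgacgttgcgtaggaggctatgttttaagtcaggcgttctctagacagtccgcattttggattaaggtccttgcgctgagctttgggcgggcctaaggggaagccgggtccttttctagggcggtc
Cox6b2, chr7:4753075-4753274, minus strand: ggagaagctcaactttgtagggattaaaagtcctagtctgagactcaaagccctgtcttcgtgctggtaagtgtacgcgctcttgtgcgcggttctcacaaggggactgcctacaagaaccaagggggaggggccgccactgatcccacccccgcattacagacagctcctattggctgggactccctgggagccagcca

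The first comparison, intermediate against early, asks what accompanies the gain of Cd24. Of 79 nuclear members, 77 fell and 0 rose (edgeR's quasi-likelihood test, Benjamini-Hochberg adjusted p under 0.05 over 16210 genes). DESeq2 also gave 77 lower and 0 higher. Among all genes tested, 25.7% were lower and 28.7% higher. The median log2 fold change was -0.98 over nuclear members and 0.06 over all genes. Summed nuclear levels were 14113, 12700 and 14655 CPM in the early libraries and 6999, 7021 and 7054 in the intermediate ones. Every early library thus lay above every intermediate one. As shares of all counts, the nuclear members made up 0.920%, 0.832% and 0.984% in early and 0.737%, 0.739% and 0.728% in intermediate libraries. TMM factors were 0.652 to 0.672 in early and 1.03 to 1.05 in intermediate libraries, so the size of the fall depends on the scaling. In these bulk samples, fewer cells of a type and less RNA per cell cannot be told apart. Hepatocyte and biliary markers moved at the same step, and their part in the fall was not tested.

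**Figure D1:**
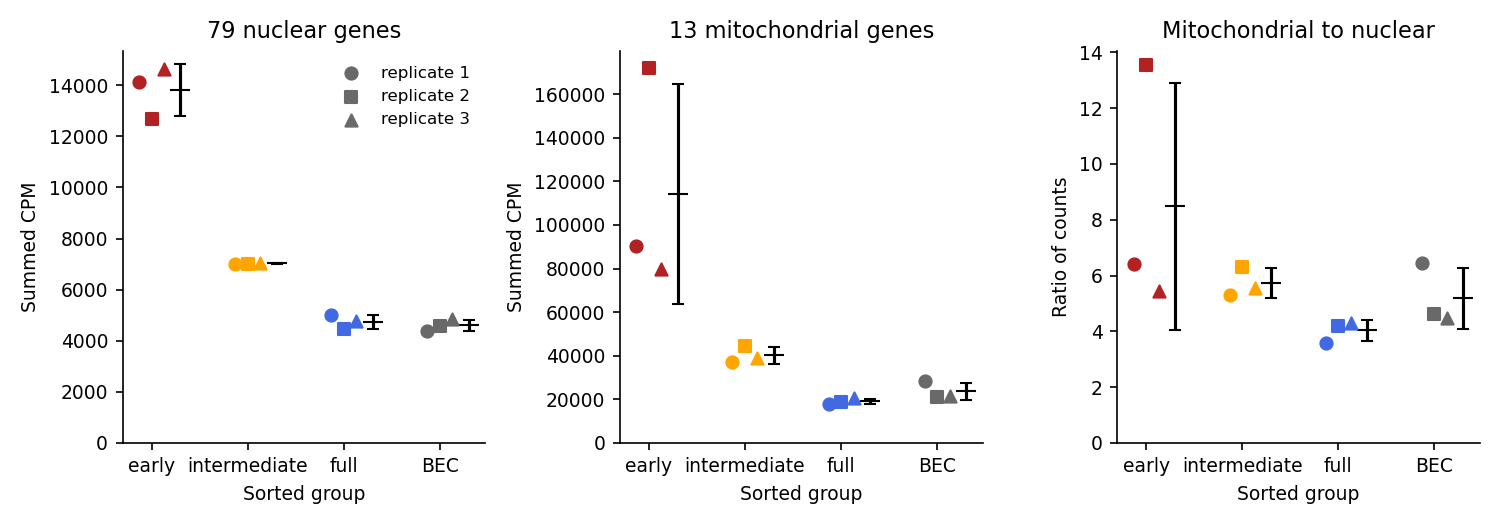
Summed CPM of the 79 nuclear genes (left) and the 13 mitochondrial genes (middle), and the ratio of their counts (right), by sorted group. Symbols are replicates, bars are the mean ± SD (n = 3), and axes start at 0; the nuclear sum lies between 12700 and 14655 CPM in early and between 4385 and 4843 in BEC, and early replicate 2 stands apart at 172244 CPM in the mitochondrial sum.

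The fall covered every complex. All 4 complex II genes fell, with a median log2 fold change of -1.11, and complexes III, IV and V had medians of -1.04 each (8 of 8, 12 of 14 and 17 of 17 lower). Complex I had 36 of 36 lower with a median of -0.86. Whether complex I differed from the other complexes was not tested.

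In complex III, the ubiquinone-binding subunit gene Uqcrq held 310, 259 and 300.2 CPM in early and 82.0, 74.0 and 72.0 in intermediate libraries. It fell by 1.93 on the log2 scale (SE 0.12, edgeR adjusted p = 2.25e-08), the largest fall among nuclear members at this step. Every early library lay above every intermediate one.

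In complex I, the accessory subunit gene Ndufb9 had the largest fall, from 77.0, 78.1 and 69.9 CPM to 32.0, 26.2 and 28.5 (log2 fold change -1.38, SE 0.12, edgeR adjusted p = 3.29e-07). In complex V the largest fall was that of Atp5g1, from 135, 142 and 177 CPM to 53.3, 60.7 and 61.3 (-1.37, SE 0.11, edgeR adjusted p = 2.16e-07). In complex IV it was that of Cox7a2, from 107, 104 and 115 CPM to 43.3, 41.1 and 42.0 (-1.37, SE 0.09, edgeR adjusted p = 5.39e-08). In each of these 3 genes the groups did not overlap.

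Complex II joins the chain to the TCA cycle and has no mitochondrial subunit. Its flavoprotein gene Sdha held 596, 552 and 707 CPM in early and 289, 308 and 330 in intermediate libraries (-1.0, SE 0.11, edgeR adjusted p = 3.37e-06). The iron-sulfur subunit gene Sdhb changed by -1.22, and the membrane anchor genes Sdhc and Sdhd by -0.81 and -1.25, with adjusted p from 1.62e-07 to 3.17e-06. Under total counts alone Sdhc was not called (-0.15, adjusted p = 0.150). No early library of these 4 genes overlapped an intermediate one.

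**Figure D2:**
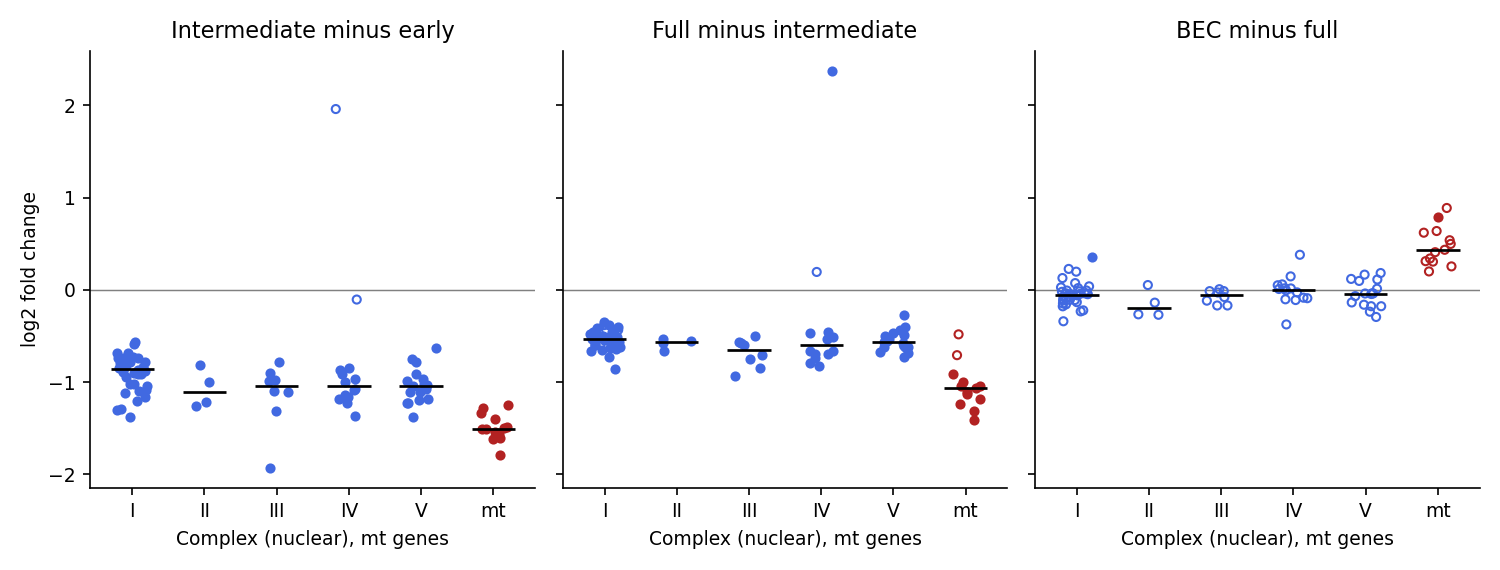
Log2 fold change of each member at the 3 steps, by complex for nuclear genes (blue) and for the mitochondrial genes (red). Filled points passed edgeR's test at an adjusted p under 0.05, open points did not, and lines are medians; the nuclear medians lie between -1.11 and -0.86 at the first step, between -0.65 and -0.53 at the second, and between -0.20 and 0.0033 in BEC against full.

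Only Cox7a2l and Cox6b2 among the nuclear members were not called at this step. Cox7a2l, which encodes a Cox7a-related protein that joins complexes III and IV into supercomplexes, held 139, 102 and 117 CPM in early and 113, 108 and 112 in intermediate libraries. These ranges overlapped, and the log2 fold change was -0.10 (SE 0.11, edgeR adjusted p = 0.449). Scaled by total counts alone, the direction turned to 0.56 (adjusted p = 0.000422), and without early replicate 1 it was 0.02 (adjusted p = 0.894). Under total counts alone the median of all genes itself lay at 0.72, and the nuclear members lay 1.03 below it. A change of scaling shifts all genes by about the same amount, so this distance could hardly differ from that of the TMM-scaled fit. With that scaling 44 nuclear members were called, 42 lower and 2 higher (Cox6b2 and Cox7a2l), where 10% of all genes were lower and 59.4% higher.

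The second comparison, full against intermediate, asks what accompanies the gain of Epcam. Of the 79 nuclear members 72 fell and 1 rose, against 19.8% lower and 20.8% higher among all genes. The nuclear median was -0.56 and that of all genes 0.01. Summed nuclear levels were 5021, 4459 and 4752 CPM in full libraries, all below the intermediate ones. Medians by complex ran from -0.53 (complex I) to -0.65 (complex III). A test for a change beyond 1.5-fold left 3 calls, where 18% of all genes passed it.

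Uqcrq again fell most, to 43.4, 36.7 and 39.5 CPM (-0.93, SE 0.12, edgeR adjusted p = 3.13e-05). Ndufa1, which encodes a small membrane subunit of complex I, fell from 25.6, 20.7 and 22.1 to 13.5, 12.9 and 11.4 CPM (-0.85, SE 0.19, edgeR adjusted p = 0.00275). In complex IV the largest fall was that of Cox7c, to 52.8, 46.7 and 57.8 CPM from 98.8, 86.9 and 92.3 (-0.82, SE 0.09, edgeR adjusted p = 9.92e-06). In complex V it was that of Atp5pb, the peripheral stalk subunit b gene, to 98.7, 85.3 and 90.6 CPM from 152, 150 and 153 (-0.73, SE 0.09, edgeR adjusted p = 1.73e-05). In all 4 genes the full libraries lay below the intermediate ones. The complex II genes Sdha, Sdhb, Sdhc and Sdhd changed by -0.58, -0.53, -0.66 and -0.55, and all 4 passed the test. The 6 members not called were Ndufa2, Ndufa3, Ndufb2, Ndufb3, Atp5k and Cox7a1, with adjusted p from 0.0522 to 0.723.

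Cox6b2, known as a testis form of the complex IV subunit Cox6b, was the member that rose. It had at least 10 counts in 7 libraries, none of them early, so it met the count minimum only through the groups where it was higher. It held 0.817, 0.110 and 0.453 CPM in intermediate and 2.30, 2.36 and 2.45 in full libraries (log2 fold change 2.38, SE 0.62, edgeR adjusted p = 0.00719). In early libraries it had 2, 0 and 2 counts, at or under the floor of 3 counts, so no fold against early is given. Its point at the first step in the plot of fold changes by complex depends on the prior count of the fit and is no measured fold. Intermediate against early did not pass (edgeR adjusted p = 0.114), and passed without intermediate replicate 2 (adjusted p = 0.0452). In BEC libraries it held 0.578, 2.56 and 2.33 CPM, with replicate 1 within the intermediate range. Its level stayed low in every group, and it made up 3.73% ± 0.364 of Cox6b counts in full libraries (SD, n = 3), the rest being Cox6b1.

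The third comparison, BEC against full, asks what separates resident biliary cells from those marked as hepatocyte descendants. Of the 79 nuclear members 1 rose (Ndufa6) and 0 fell, against 10.7% higher and 10.6% lower among all genes. At an unadjusted p under 0.05 there were 3 nuclear members, against 4987 of all 16210 genes. DESeq2 called 1 higher and 0 lower, against 12.1% higher and 11.5% lower among all genes. The nuclear median was -0.04, and 75 of 79 members had a log2 fold change under 0.3 in size, with a median SE of 0.11. Summed nuclear levels in BEC libraries were 4385, 4561 and 4843 CPM, overlapping the full group. Ndufa6, a complex I accessory subunit gene, held 67.7, 68.6 and 65.8 CPM in full and 81.4, 88.6 and 89.7 in BEC libraries, without overlap (0.36, SE 0.08, edgeR adjusted p = 0.00417). The call was lost with no filter on low counts (0.33, adjusted p = 0.0532). With the replicate number as a block, 2 members were called, the other being Sdhb (-0.26, adjusted p = 0.0357), which was also called without BEC replicate 1 (-0.34, adjusted p = 0.0331). The median changed sign without BEC replicate 1, to 0.01.

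Comparisons across more than 1 step use the same libraries as the steps above. Full against early had 77 nuclear members lower and 1 higher (median -1.54), where 32.1% of all genes were lower and 39.1% higher. BEC against early also had 77 lower and 1 higher (median -1.52), against 33% lower and 40% higher. BEC against intermediate had 74 lower and 1 higher (median -0.61), against 26.2% lower and 26.3% higher. The member that rose was Cox6b2 in each, which met the count minimum without an early library. In BEC against intermediate, where its groups overlapped, no member was higher without intermediate replicate 2, BEC replicate 2 or BEC replicate 3. Over all 4 groups, 78 nuclear and 13 mitochondrial members passed edgeR's F test, where 75.6% of all genes did. The nuclear exception was Cox7a1, the form known from heart and muscle, which was called in intermediate against early alone. It held 2.22, 2.36 and 5.26 CPM in early and 1.32, 1.10 and 2.49 in intermediate libraries (-1.0, edgeR adjusted p = 0.0413). Its groups overlapped, and the call was lost under total counts alone (-0.35, adjusted p = 0.437) and with the 6 libraries of both groups (adjusted p = 0.101). It was also lost without early replicate 3 (-0.48, adjusted p = 0.307) and without intermediate replicate 1 or 2, any 1 of the full libraries, or BEC replicate 2 or 3 (adjusted p from 0.0529 to 0.147).

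Most mitochondrial members fell at both steps of the EGFP+ cells. Intermediate against early, 13 of 13 were lower, against 25.7% of all genes, with a median log2 fold change of -1.5. Full against intermediate, 11 of 13 were lower, against 19.8% of all genes, with a median of -1.07. Summed levels were 90384, 172244 and 80014 CPM in early, 37046, 44364 and 39057 in intermediate, 18043, 18744 and 20481 in full and 28209, 21042 and 21719 in BEC libraries. The groups of EGFP+ cells did not overlap. Early replicate 2 held more than the other two early libraries together, while its nuclear sum was the lowest of the 3. The mitochondrial rRNA genes mt-Rnr1 and mt-Rnr2, which are no members, were also highest in this library, with 0.0959%, 0.130% and 0.0641% of all counts in early libraries, and group means of 0.0635% in intermediate, 0.0319% in full and 0.0342% in BEC. Without it the mitochondrial median at the first step was -1.12, and all 13 genes were still lower.

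Per kilobase of exon, mt-Co1, the catalytic subunit gene of complex IV, had the highest level in every group among the members with an exon length (Atp5pb, Ndufb1 and Atp5md had none in the annotation used here), with 30218 CPM per kb in early and 5729 in full. Among the same members, the highest nuclear level per kilobase in early was that of Cox6a1, a complex IV subunit gene, at 525 CPM per kb. mt-Co1 held 37107, 70639 and 32315 CPM in early, 16245, 19957 and 17030 in intermediate, 8374, 8965 and 9217 in full and 12901, 9967 and 10098 in BEC libraries. It changed by -1.40 at the first step (SE 0.25, edgeR adjusted p = 0.000287) and by -1.0 at the second (SE 0.24, adjusted p = 0.00476). The 4 groups did not overlap, and BEC libraries lay between full and intermediate.

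mt-Nd2, a core subunit gene of complex I, had the largest fall of the mitochondrial members at both steps. It held 8739, 17528 and 7794 CPM in early, 3002, 3668 and 3212 in intermediate, and 1095, 1184 and 1427 in full libraries (-1.79, SE 0.26, edgeR adjusted p = 5.88e-05, then -1.41, SE 0.26, adjusted p = 0.000639). Its share of mitochondrial member counts was 9.86% ± 0.274 in early libraries, 8.20% ± 0.0850 in intermediate ones, 6.45% ± 0.462 in full ones and 6.60% ± 0.223 in BEC ones (SD over 3 replicates). The share of mt-Co1 was 40.8% ± 0.374, 44.1% ± 0.736, 46.4% ± 1.41 and 46.5% ± 0.819 in the same order. These shares were not tested. mt-Cytb, the mitochondrial subunit of complex III, changed by -1.56 and -1.07, and mt-Nd6, the only member on the other strand of the mitochondrial genome, by -1.61 and -1.05. mt-Nd1, mt-Nd4 and mt-Nd5 changed by -1.54, -1.49 and -1.60 at the first step and by -1.11, -1.18 and -1.04 at the second, and all passed the test.

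**Figure D3:**
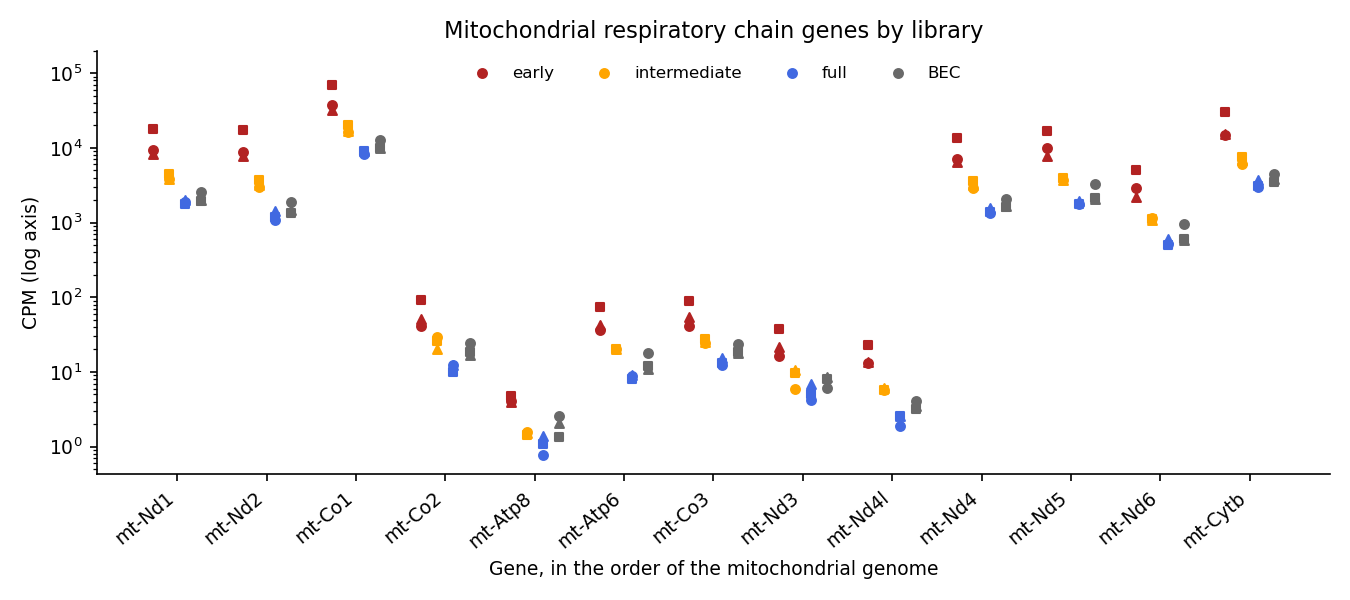
CPM of the 13 mitochondrial members in each library, on a log axis, in the order of the genes on the mitochondrial genome. Colours are sorted groups and symbols replicates (circle 1, square 2, triangle 3); the 6 genes from mt-Co2 to mt-Nd4l sit far below their neighbours in every group, and each gene is highest in the early libraries.

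The 6 neighbouring genes mt-Co2, mt-Atp8, mt-Atp6, mt-Co3, mt-Nd3 and mt-Nd4l together held between 0.169% and 0.291% of mitochondrial member counts. Per kilobase, mt-Co2 held 90.2 CPM in early, against 30218 for its neighbour mt-Co1. A set of 5 annotated pseudogenes on chromosome 1 matches most of these genes without a mismatch in the GENCODE M21 transcripts: Gm28661 matches 681 of 684 bases of mt-Co2, and Gm10925, Gm28437, Gm28438 and Gm10222 match mt-Atp6, mt-Co3, mt-Nd3 and mt-Nd4l over 678, 783, 342 and 294 bases. mt-Nd4 and mt-Co1, which flank them, are matched over 876 of 1378 and 479 of 1545 bases by Gm28439 and Gm29216. Reads from these runs fit both places, and how the counting treated such reads is not given in the sources used here. mt-Atp8 has no annotated copy and lies between mt-Co2 and mt-Atp6. Gm28661 itself had 238 to 1367 counts per library. The run below, the first 60 bases of mt-Co2, is shown because it is the same in the mitochondrial gene and in Gm28661.
mt-Co2: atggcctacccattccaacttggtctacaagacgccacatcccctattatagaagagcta

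Of the nuclear members, 76 had a GENCODE M21 transcript, and 49 of them shared no run of 100 bases with another gene. Atp5l alone shared over 50% of such runs (68.99%), so its counts are also uncertain. Among the mitochondrial members, mt-Co2, mt-Atp6, mt-Co3, mt-Nd3 and mt-Nd4l shared 97.6% to 99.9% of such runs and mt-Nd4 60.8%, so their levels are uncertain in the same way. mt-Atp8, also low, shared none. The part of the copies in the low counts was not tested. At both steps of the EGFP+ cells the 6 genes had medians near those of the other 7. These were -1.42 against -1.56 at the first step and -1.02 against -1.07 at the second. In the other comparisons they lay further apart. Medians were 0.63 against 0.31 in BEC against full and -2.31 against -2.65 in full against early. They were -0.36 against -0.81 in BEC against intermediate and -1.67 against -2.36 in BEC against early. The 2 genes not called at the second step were both among the 6, mt-Nd3 (-0.71, edgeR adjusted p = 0.0821) and mt-Atp8 (-0.48, adjusted p = 0.257). mt-Nd3 passed with no filter on low counts (-0.70, adjusted p = 0.00904), with the replicate number as a block (-0.69, adjusted p = 0.0166), without early replicate 2 (-0.71, adjusted p = 0.0373) and without intermediate replicate 1 (-0.92, adjusted p = 0.0324).

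In BEC against full, all 13 mitochondrial members were above 0, with a median of 0.44, and 1 of 13 passed the test, against 10.7% of all genes called higher. The 6 low-count genes had a median of 0.63 with 1 call, and the other 7 a median of 0.31 with 0 calls. At the same comparison 3 of 6 macrophage markers tested were higher (median 1.02, summed levels above), and their part in these values was not tested. The member called, mt-Co2, is among the low-count genes matched by a chromosome 1 copy. It held 12.5, 10.03 and 12.2 CPM in full and 24.8, 18.5 and 16.7 in BEC libraries (0.79, SE 0.26, edgeR adjusted p = 0.0476). The call was lost without intermediate replicate 2, without any 1 of the full libraries and without BEC replicate 1 or 2 (adjusted p from 0.0603 to 0.192). Without BEC replicate 1, whose mitochondrial sum was the highest of its group, the median was 0.19 and no member was called. Without early replicate 1 or 2 there were 3 and 4 calls, all higher, against 11.5% and 10.7% of all genes. Full against early and BEC against early each had 13 of 13 lower, with medians of -2.63 and -2.19, where 32.1% and 33% of all genes were lower. BEC against intermediate had 8 of 13 lower (median -0.64), where 26.2% of all genes were, and between 4 and 10 when 1 library was left out, with 5 without intermediate replicate 2 or 3 and 4 without BEC replicate 2 or 3.

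Set against the nuclear members, the mitochondrial members made up 6.40, 13.6 and 5.46 times the nuclear counts in early, 5.29, 6.32 and 5.54 times in intermediate, 3.59, 4.20 and 4.31 times in full and 6.43, 4.61 and 4.48 times in BEC libraries. The full libraries were below all others in this ratio. Within complexes I and IV they overlapped BEC, with full replicate 3 at 6.88 and BEC replicate 3 at 6.70 times in complex I, and full replicate 2 at 12.03 and BEC replicate 3 at 11.6 times in complex IV. Early and intermediate libraries overlapped, as did intermediate and BEC. Complex II, with no mitochondrial gene, had medians of -1.11 and -0.57 at the first and second step, close to the -1.04 and -0.57 of the nuclear genes of complex V.

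Members that come in alternative forms are given as shares of their family's counts, which were not tested. Cox7a2 made up 47.2% ± 3.60 of Cox7a counts in early cells, 27.2% ± 0.356 in those that had gained Cd24, 27.1% ± 0.404 in full cells and 25.8% ± 0.971 in resident biliary cells (SD over 3 replicates). Cox7a2l made up 51.4% ± 3.98 of those counts in early and 71.7% ± 0.116, 71.2% ± 0.485 and 71.95% ± 0.886 in the other groups. Early libraries did not overlap the other groups in either share. Most of the shift lay between early and intermediate.

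For the c subunit of ATP synthase, which forms the rotating ring, the share of Atp5g2 was 19.4%, 22.2% and 17.8% in early, 25.7%, 25.7% and 26.1% in intermediate, 29.6%, 31.5% and 31.5% in full and 36.5%, 31.9% and 30.9% in BEC libraries. The 3 groups of EGFP+ cells did not overlap, while full and BEC did. Atp5g2 itself changed by -0.63 (SE 0.07, edgeR adjusted p = 8.39e-06) and -0.28 (SE 0.07, adjusted p = 0.00875), while Atp5g3 changed by -1.04 and -0.68 and Atp5g1 by -1.37 and -0.50. Under total counts alone, the first change of Atp5g2 was 0.04 (adjusted p = 0.657) and the second -0.07 (adjusted p = 0.446), and the first change of Atp5g3 was -0.38 (adjusted p = 0.0511). With no filter on low counts the second call was also lost (-0.27, adjusted p = 0.116). The shares do not depend on the scaling.

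**Figure D4:**
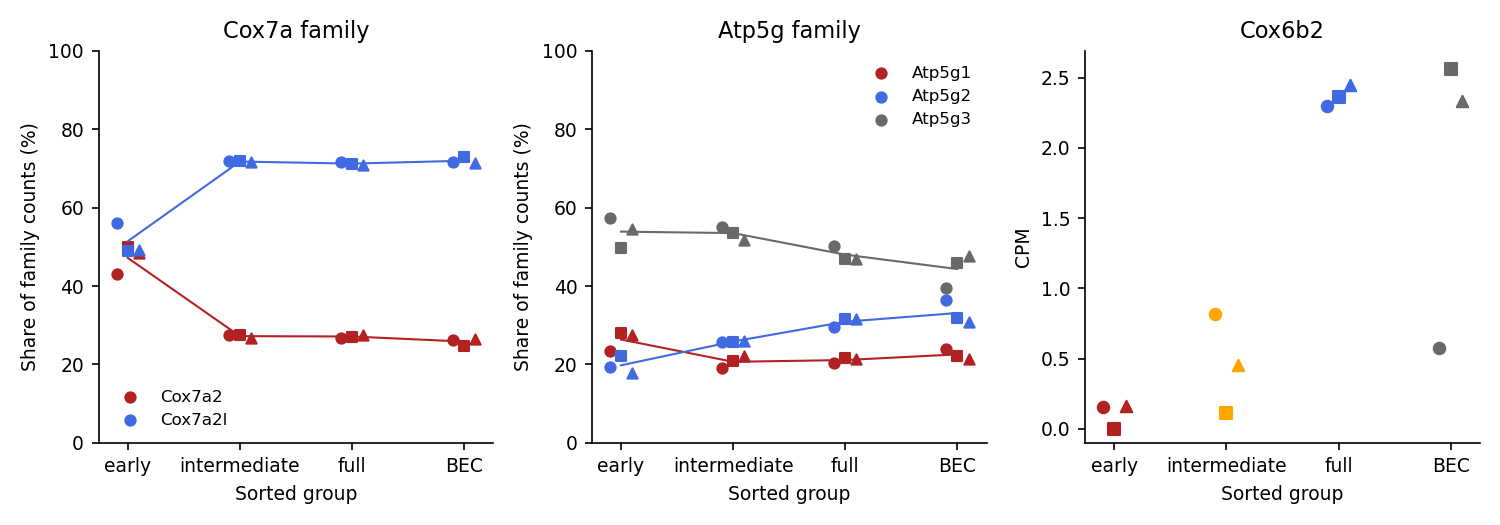
Share of family counts for the Cox7a genes (left, Cox7a1 not drawn) and the Atp5g genes (middle), and CPM of Cox6b2 (right), in each library by sorted group. Symbols are replicates and lines join group means; the mean Cox7a2 share is 47.2% in early and 27.2% in intermediate, the mean Atp5g2 share 19.8% in early and 33.1% in BEC, and Cox6b2 is near 0 in early libraries.

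Genes that assemble, feed or regulate the chain are given from lists chosen with earlier results known. At the first step 12 of 17 complex I assembly genes and 24 of 33 assembly genes of complexes II to V were lower, with medians of -0.55 and -0.52, where 25.7% of all genes were lower. Among the largest falls were Ecsit, a complex I assembly factor (-1.06, edgeR adjusted p = 7.38e-07), and Coa6, a complex IV copper factor (-1.44, adjusted p = 8.33e-07). At the second step 7 and 14 of the same lists were lower, where 19.8% of all genes were.

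Electron carriers and the genes that feed them had 15 of 20 lower at the first step (median -0.68) and 10 of 20 at the second, against 25.7% and 19.8% of all genes. Cytochrome c, encoded by Cycs, fell from 90.6, 118 and 130 CPM to 33.2, 44.2 and 38.4 (-1.55, SE 0.14, edgeR adjusted p = 5.17e-07). The testis cytochrome c gene Cyct had 0 counts in all 12 libraries. Cyc1, the cytochrome c1 subunit gene of complex III, fell by 1.26 on the log2 scale. Ndufab1, the acyl carrier subunit of complex I, fell by 1.01 on the log2 scale. Neither symbol matches the naming rule. Coq8a, a kinase-like gene of ubiquinone synthesis, fell at all 3 comparisons (-1.36, -1.13 and -0.71). Ndufa4l2, a paralog of the complex IV subunit gene Ndufa4, had 12, 12 and 11 counts in early libraries and at most 2 in any other.

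Of 18 TCA cycle genes, which supply NADH and succinate, 17 were lower at the first step (median -0.82) and 14 at the second, against 25.7% and 19.8% of all genes. Pcx, which makes oxaloacetate from pyruvate, fell most, from 881, 743 and 780 CPM in early to 154, 136 and 148 in intermediate and 38.1, 32.2 and 38.6 in full libraries (-2.46 and -2.01). Cs, citrate synthase, fell by 0.65 at the first step on the log2 scale and had 0.09 at the second (adjusted p = 0.505). Under total counts alone the first value for Cs was 0.01 (adjusted p = 0.933), and the second was called higher (0.29, adjusted p = 0.0272).

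For transcription and upkeep of mitochondrial DNA, 14 of 26 genes were lower and 1 higher at the first step (median -0.35), against 25.7% lower and 28.7% higher among all genes. At the second step 7 were lower, a share near the 19.8% of all genes, and 1 was higher, against 20.8%. Lrpprc, which stabilises mitochondrial mRNAs, held 189, 189 and 229 CPM in early, 88.0, 88.1 and 106 in intermediate and 52.3, 52.3 and 53.4 in full libraries (-1.10, SE 0.11, edgeR adjusted p = 1.14e-06, then -0.84, SE 0.11, adjusted p = 2.96e-05). No 2 of these groups overlapped. Tfam, which packages mitochondrial DNA, changed by -0.66 (adjusted p = 0.000363) and -0.14 (adjusted p = 0.366), the latter passing without full replicate 1 (-0.30, adjusted p = 0.0449). Polrmt, the mitochondrial RNA polymerase, changed by -0.31 and -0.37, and both passed the test. With no filter the first Polrmt call was lost (-0.27, adjusted p = 0.106). Under total counts alone the first-step value was 0.01 for Tfam, and Polrmt was called higher at the first step (0.35, adjusted p = 0.00199) and not called at the second (-0.17, adjusted p = 0.121).

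Of 18 regulators of mitochondrial genes, 6 were lower and 5 higher at the first step, with a median near 0. These shares are near the 25.7% lower and 28.7% higher of all genes, so the counts at this step are no result about the list. At the second step 9 were lower and 1 higher (median -0.24), against 19.8% lower and 20.8% higher among all genes. Ppara, a receptor that drives fatty acid oxidation genes, fell at all 3 comparisons, from 109, 139 and 155 CPM in early to 29.2, 42.9 and 41.5, then 5.79, 6.91 and 7.43, and 2.36, 3.87 and 4.39 in BEC libraries (-1.83, -2.50 and -0.92). The coactivator gene Ppargc1b also fell at each (-0.81, -1.34 and -1.43, edgeR adjusted p from 0.000220 to 0.00399), the first not under total counts alone (-0.15, adjusted p = 0.531). Ppargc1a, its paralog, had -0.33 at the first step (adjusted p = 0.0758) and -0.11 at the second (adjusted p = 0.578). The first value passed with DESeq2 (-0.39, adjusted p = 0.0383), with median-of-ratios factors (-0.39, adjusted p = 0.0429), without intermediate replicate 3 (-0.46, adjusted p = 0.0260) and without BEC replicate 1 (-0.33, adjusted p = 0.0356), and turned to 0.33 under total counts alone (adjusted p = 0.0561). Nrf1, whose core motif was searched above, rose from 16.7, 20.5 and 17.2 CPM to 28.7, 29.2 and 32.3 (0.73, SE 0.12, edgeR adjusted p = 0.000127). Esrra had -0.36 at the first step (adjusted p = 0.107), called with the 6 libraries of both groups (-0.36, adjusted p = 0.0356), with the replicate number as a block (-0.35, adjusted p = 0.0435) and without BEC replicate 1 (-0.36, adjusted p = 0.0320), and fell by 0.63 on the log2 scale at the second (adjusted p = 0.0128). Under total counts alone Esrra had 0.30 (adjusted p = 0.158) and -0.43 (adjusted p = 0.0741). The 21 members with a core in a promoter had a median of -1.04 at the first step and the 46 with none -0.94. Values ran from -1.31 to -0.63 in the former, within the range of the latter.

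Import and channel genes had 16 of 18 lower and 1 higher at the first step (median -0.63), against 25.7% lower and 28.7% higher among all genes. At the second step 11 were lower (median -0.36), against 19.8% of all genes. Slc25a5 and Slc25a4 encode paralogous carriers that exchange ADP and ATP across the inner membrane, and they moved in opposite directions. Slc25a5 held 606, 562 and 658 CPM in early and 200.4, 216 and 219 in intermediate libraries (-1.52, SE 0.09, edgeR adjusted p = 1.91e-08). Slc25a4 held 58.0, 24.4 and 29.6 CPM in early and 156, 135 and 111 in intermediate libraries (1.84, SE 0.24, adjusted p = 2.42e-05). Neither gene's early libraries overlapped its intermediate ones. Vdac1, the outer membrane channel, fell by 0.82 and 0.34 on the log2 scale, and neither was called under total counts alone (-0.16 and -0.14, adjusted p = 0.0835 and 0.177). Ucp2, an inner membrane carrier, rose at each comparison, from 13.8, 8.73 and 17.8 CPM in early to 43.5, 36.6 and 34.4, then 139, 118 and 110.0, and 349, 300 and 303 in BEC libraries (1.5, 1.68 and 1.37, edgeR adjusted p from 6.80e-06 to 6.90e-05).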

How the data were processed

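Bulk RNA of 12 libraries was counted per gene by the authors with featureCounts 2.0.1 after alignment with STAR 2.7.10b to GRCm39, per the submitters' processing notes. The deposited table holds raw counts. A second deposited table holds signal, the same counts divided by 1 factor per library, and was used only for a check. Strandedness, read length and the handling of reads matching more than 1 gene are not given in the sources used here. Of 53599 genes, filterByExpr kept 16210, which held over 99% of counts. Analysis used R 4.3.3, edgeR 4.0.16 (TMM, quasi-likelihood test, 1 fit over 12 libraries with a term per group), DESeq2 1.42.0 as an alternative, Python 3.11.15 and matplotlib 3.10.9, and was tested on simulated counts. CPM uses the TMM-scaled library size, whose factors ran from 0.652 to 1.22. The common biological coefficient of variation was 14.8%. A level of 3 counts, the floor, is 0.128 to 0.273 CPM and covers counting error only. The members, lists and named genes were chosen with earlier results of these data known. Named genes were all mitochondrial and Sdh members, isoform families, the called member with the largest change in each direction per complex and step, a fixed set of carriers and regulators, and the called gene with the largest change per list and step. Replicates of a group differed beyond counting error (chi-square per degree of freedom 5.23 to 54.4). Same-numbered libraries deviated together across genes, with r of 0.121 to 0.293 for intermediate and early, 0.137 to 0.322 for full and intermediate and 0.170 to 0.257 for BEC and full. For the other comparisons r was lower. It was 0.0960 to 0.209 for full and early, 0.0839 to 0.175 for BEC and intermediate and 0.0442 to 0.145 for BEC and early. What the numbers mark is not stated. The main fit holds no term for them, and a fit with the replicate number as a block was an alternative. Alternatives were other scalings and filters, 6-library fits, a replicate block, a minimum fold change and leaving out each library. Sequences came from RefSeq (GRCm38.p6) and GENCODE M21.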

Additional observations from a re-analysis of the deposited data

How the results depend on the processing

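Most values kept their direction and side of the threshold under other tools, scalings, filters, fits of 6 libraries and a replicate block. Scaling by total counts alone moved the median of all genes to 0.72 for intermediate against early. It left 44 nuclear calls there and gave nuclear medians of -0.31, -0.36, -0.67, -0.65 and -0.41 for intermediate against early, full against intermediate, full against early, BEC against early and BEC against intermediate. The mitochondrial medians were -0.84, -1.76 and -1.32 for intermediate, full and BEC against early, and BEC against intermediate had 4 mitochondrial calls. It also turned intermediate against early to 0.56 for Cox7a2l, 0.039 for Atp5g2, 0.33 for Ppargc1a, 0.30 for Esrra, 0.0067 for Tfam, 0.35 for Polrmt, 0.011 for Cs and 0.11 for Timmdc1, and full against intermediate to 0.089 for Ppargc1a, 0.080 for Nrf1 and 0.057 for Tfam. These follow from the shift of all genes. A minimum 1.5-fold change left 3 nuclear and 7 mitochondrial calls in full against intermediate, 0 and 0 in BEC against full, and 14 and 1 in BEC against intermediate, where 18%, 9.03% and 27.5% of all genes passed. In BEC against full, nuclear calls were 0 with no filter and 2 with the replicate block, and mitochondrial calls were 3 by DESeq2, 4 with no filter, 0 at a mean of at least 50 counts and 3 with 6 libraries. Of all genes, 11.9% were called with no filter, 25.3% with the block and 23.6% by DESeq2. The shares were 23.7% at a mean of at least 50 counts and 26.3% with 6 libraries. The block changed no other count of calls among nuclear or mitochondrial members by over 1.5 times. With it 73 nuclear and 12 mitochondrial members were lower in full against intermediate, and 75 and 9 in BEC against intermediate. Of all genes, 22.1% and 27.7% were lower there with the block. Without the 6 low-count mitochondrial genes, an alternative chosen after seeing the data, 7 of 7 were called in each comparison with early, in full against intermediate and over 4 groups, and 0 in BEC against full, since fewer genes were counted. The mitochondrial share of counts was 7.52%, 4.20%, 2.29% and 2.84% in early, intermediate, full and BEC, and 2.05%, 1.85%, 1.05% and 0.897% without the 10 most abundant genes of each library, mitochondrial members among them, which puts BEC below full instead of above it. The mitochondrial to nuclear ratio was 3.19, 2.16 and 2.77 in intermediate, full and BEC without mt-Co1, and 30.9, 19.96, 14.4 and 20.03 in the 4 groups as a ratio of median log2 CPM levels.

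Leaving out 1 library at a time gave nuclear medians from -1.01 to -0.89 for intermediate against early, -1.61 to -1.49 for BEC against early and -0.092 to 0.0074 for BEC against full, with 1 to 2 nuclear calls in the last. Mitochondrial medians ran from -1.63 to -1.12 for intermediate against early and from -2.79 to -2.22 for full against early, the upper ends without early replicate 2. Mitochondrial calls ran from 0 to 4 in BEC against full and from 4 to 10 in BEC against intermediate. Values changed sign for Cox7a2l at the first step (-0.21 to 0.020, the latter without early replicate 1) and, at the second, for Cox7a1 (-0.035, without intermediate replicate 2, to 0.63), Ppargc1a (-0.18 to 0.010, the latter without intermediate replicate 3) and Slc25a4 (-0.10 to 0.15, below 0 without intermediate replicate 3 or full replicate 1). The cause of these changes was not tested. Cox6b2, Cox7a1, Ndufa4l2 and mt-Atp8 are limited by low counts.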

Other observations

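Atpif1, whose newer symbol Atp5if1 would match the naming rule, encodes a protein known to inhibit ATP hydrolysis by complex V, and it was singled out after its values were seen. It held 28.2, 33.6 and 32.3 CPM in early, 55.1, 45.6 and 51.5 in full and 56.9, 52.4 and 61.0 in BEC libraries, with a mean of 59.5 ± 0.399 in intermediate ones (SD, n = 3). Every early library lay below all others. Atpif1 rose from early to intermediate (log2 fold change 0.93, SE 0.10, edgeR adjusted p = 3.78e-06), where all 17 nuclear members of complex V fell.

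The chromosome 1 copies of mitochondrial genes were themselves counted in every library. Gm28661, the copy of mt-Co2, had 238 to 1367 counts per library, Gm10925, the copy of mt-Atp6, 232 to 1144, and Gm28437, the copy of mt-Co3, 196 to 636.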
